A study of Mus musculus with 6 samples.

Results

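The mitochondrial ribosomal protein genes were followed in mouse macrophages that had been given dying thymocytes to engulf. They were taken as every row of the deposited expression table whose symbol begins with Mrpl (large subunit) or Mrps (small subunit) followed by a digit. This rule found 79 of 38124 rows, of which 48 had Mrpl and 31 had Mrps symbols. Of the 79, 76 were genes and passed the filter of at least 1 RPKM in at least 3 libraries. The other 3 were pseudogene rows that did not pass. RPKM is a read number divided by gene-model length and by library depth.

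The treated group was 3 samples of wild-type C57BL bone-marrow-derived macrophages, which are grown in culture from marrow precursors, kept for 24 hr with apoptotic thymocytes at a stated ratio of 1:40. Dexamethasone, a synthetic glucocorticoid, had been used to drive the thymocytes into apoptosis, and these cells were removed ahead of RNA extraction. The treated samples were compared with 3 untreated samples of wild-type C57BL bone-marrow-derived macrophages. The series' design text calls the samples biological replicates, poly(A) RNA was sequenced from a stranded library kit, and the sources used here name no sex or age of the mice.

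Mitochondria carry ribosomes of their own, which translate only the few messenger RNAs made from mitochondrial DNA, all of them for subunits of the respiratory chain and ATP synthase. The ribosomal RNAs come from mitochondrial DNA, but every protein of this ribosome is encoded in the nucleus, made in the cytosol and imported. Some of these proteins descend from bacterial ribosomal proteins, and others joined the ribosome in the mitochondrial lineage. Macrophages that engulf dead cells take on a large load of lipid, nucleic acid and protein, and mitochondrial function is among the processes known to be altered in them.

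On the RPKM scale the mitochondrial ribosomal protein genes were called less often than tested genes at large, and their changes with apoptotic thymocytes were small. Of the 76 tested, 20 were higher, 7 were lower and 49 did not pass the test (limma on log2(RPKM + 1), adjusted p under 0.05 by Benjamini-Hochberg over all tested genes). The called share was 35.5%, against 64.8% of all 10173 tested genes (18.8% higher and 46.0% lower). The median log2 change of RPKM + 1 (treated minus untreated) was 0.04 over the 76 genes and -0.13 over all tested genes. Changes of single members lay between -0.43 and 0.44. None of the 76 changed by more than 0.5 on this scale in either direction, against 23.0% of all tested genes. Group ranges did not overlap for 22 members that were higher and 13 that were lower. Among all tested genes this share was 69.6%, with 20.4% higher and 49.1% lower.

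These counts depended on how the libraries were scaled, and the contrast in called shares reversed. RPKM assumes that the total of mapped reads is a fair yardstick, and on that scale the median tested gene lay at -0.13. When the same RPKM values were divided by median-of-ratios factors, the median of all tested genes was 0.02, a shift of 0.15, and 48 members were higher and 2 lower (65.8% of members called, against 59.7% of all tested genes, 31.8% higher and 27.9% lower). Mrpl38, Mrpl41 and Mrps12 then changed by more than 0.5 (0.60, 0.58 and 0.53), against 20.8% of all tested genes. With upper-quartile factors, 49 members were higher and 2 lower (60.0% of all tested genes called, 32.3% higher and 27.7% lower). Relative to the median tested gene, the members' median was 0.17 without rescaling and 0.18 with either rescaling. The directions given below are those of the RPKM values unless a scaling is named. All 20 rises were also called after median-of-ratios scaling, which here raised treated against untreated values, and of the 7 falls, 2 were.

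**Figure D1:**
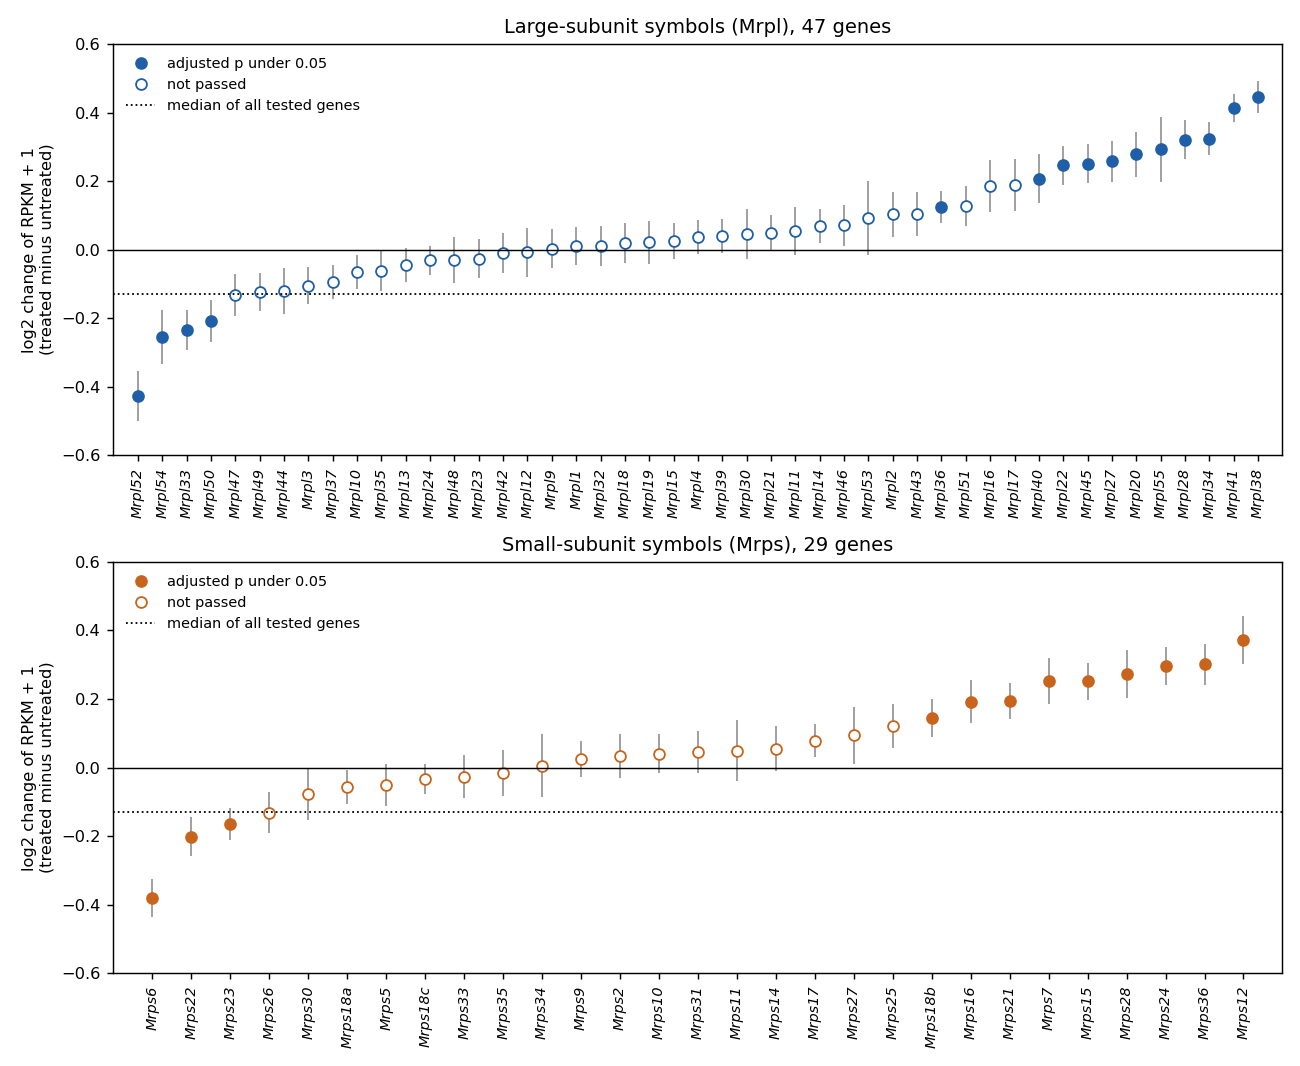
Log2 change of RPKM + 1 (treated minus untreated, y axis) for each of the 47 tested Mrpl genes (upper panel) and the 29 tested Mrps genes (lower panel), ordered by change. Lines are moderated standard errors, filled points have an adjusted p under 0.05 and the dotted line is the median of all tested genes at -0.13. Most points lie above that line, and on this scale none is beyond 0.5 in either direction.

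Depth was 22782452 to 25933207 mapped reads in treated libraries and 19315132 to 23907254 in untreated libraries, as recovered from the step size of the RPKM values. The members took 0.171% to 0.184% of mapped reads in treated libraries and 0.168% to 0.177% in untreated libraries. Single members rested on 164 to 1247 reads per library, which gives a counting error of 7.81% at the lowest and 2.83% at the highest. These errors cover counting only. The median relative SD within a group was 5.80% in treated and 5.32% in untreated macrophages, so most changes of a few percent could not be told from the spread between replicates. Mean levels ran from 1.83 RPKM (Mrps35) to 45.6 RPKM (Mrpl20) in treated macrophages and from 1.86 RPKM (Mrps35) to 52.4 RPKM (Mrpl52) in untreated macrophages, values that are scaled per length and depend on the gene model. Mrps35 was named after its values were seen.

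In the large subunit, 11 of 47 tested genes were higher and 4 were lower, with a median log2 change of 0.04. Mrpl38 gave the largest rise of all 76 members. It encodes mL38, a mitochondria-specific protein, and lies on chromosome 11 (116131817 to 116138868, minus strand, mm10). Mrpl38 had 10.7, 10.7 and 10.7 RPKM in treated macrophages, against 7.43, 7.94 and 7.43 RPKM in untreated macrophages. The treated libraries were almost identical and all stood above the untreated ones. The log2 change was 0.44 (SE 0.05, limma adjusted p = 3.16e-05), a rise of 40.8% in mean RPKM.

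Mrpl41 came next. Its product, mL41, is another mitochondria-specific protein of the large subunit that in human cells was also described as a partner of BCL-2. The gene lies on chromosome 2 (24974117 to 24975098, minus strand). Mrpl41 had 33.5, 33.3 and 34.4 RPKM in treated macrophages, against 24.95, 25.6 and 24.6 RPKM in untreated macrophages. The groups did not overlap, and the gap was wider than the spread within either. The log2 change was 0.41 (SE 0.04, limma adjusted p = 1.99e-05).

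Mrpl34, Mrpl28 and Mrpl20 encode homologues of bacterial large-subunit proteins. Mrpl34 averaged 32.7 ± 0.978 RPKM in treated and 25.9 ± 1.24 RPKM in untreated macrophages (SD, n = 3 each; log2 change 0.32, limma adjusted p = 0.000362). Mrpl28 averaged 27.1 ± 0.912 RPKM in treated and 21.6 ± 1.61 RPKM in untreated macrophages (log2 change 0.32, limma adjusted p = 0.00109). Mrpl20, among the most abundant members, had 44.4, 46.4 and 45.9 RPKM in treated macrophages, against 35.2, 41.8 and 35.5 RPKM in untreated macrophages. Its untreated replicate 2 stood well above the other untreated libraries but below all treated ones. The log2 change was 0.28 (SE 0.07, limma adjusted p = 0.00526).

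The remaining rises of the large subunit were smaller. Mrpl45, whose product mL45 holds the ribosome to the inner membrane beside the exit of the peptide tunnel, averaged 11.7 ± 0.736 RPKM in treated and 9.63 ± 0.354 RPKM in untreated macrophages (log2 change 0.25, limma adjusted p = 0.00383). Mrpl27, whose bacterial homologue reaches toward the peptidyl transferase centre, and Mrpl22, whose homologue lines the exit tunnel, rose by 0.26 and 0.25 on the log2 scale. Mrpl40 rose by 0.21. These 3 fell outside the rule for named genes and were chosen after their values were seen. Mrpl55, a bL31 homologue, had 11.5, 14.02 and 13.5 RPKM in treated macrophages, against 9.78, 12.0 and 9.54 RPKM in untreated macrophages, so its groups overlapped although it passed the test (log2 change 0.29, limma adjusted p = 0.0227). Mrpl36, at the edge of the threshold, had a log2 change of 0.13 (limma adjusted p = 0.0395). Mrpl17 and Mrpl16, just outside it, had log2 changes of 0.19 and 0.19 (limma adjusted p = 0.0525 and 0.0557). Both were called after either rescaling, and each was called without 1 library, Mrpl17 without untreated replicate 2 (limma adjusted p = 0.0265) and Mrpl16 without treated replicate 1 (limma adjusted p = 0.0089).

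Of these rises, 3 did not survive the loss of certain single libraries. Mrpl36 lost its call whichever library was left out (limma adjusted p 0.0559 to 0.163, highest without untreated replicate 1). The call of Mrpl55 was lost without treated replicate 2 or 3 or untreated replicate 1 or 3, and its largest limma adjusted p was 0.0857, without untreated replicate 3. Mrpl40 was still called in 2 of the 6 fits that each leave out 1 library, and its largest limma adjusted p was 0.115.

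Mrpl52 went the other way. It encodes mL52, a mitochondria-specific large-subunit protein, lies on chromosome 14 (54426909 to 54429750, plus strand) and had the highest mean RPKM of all members. Mrpl52 had 35.4, 40.2 and 40.5 RPKM in treated macrophages, against 50.8, 57.7 and 48.8 RPKM in untreated macrophages. Every treated library lay below every untreated one. The fall was 26.2% in mean RPKM, with a log2 change of -0.43 (SE 0.07, limma adjusted p = 0.000815), and it was still called after median-of-ratios scaling (log2 change -0.26, limma adjusted p = 0.0135).

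The other 3 falls of the large subunit were not called after either rescaling. Mrpl54, encoding mL54, averaged 19.2 ± 1.67 RPKM in treated and 23.1 ± 2.14 RPKM in untreated macrophages (log2 change -0.26, limma adjusted p = 0.0189). Its call was lost without untreated replicate 1 or 2 (limma adjusted p = 0.0519 and 0.0731). Mrpl50, encoding mL50, averaged 10.4 ± 0.873 RPKM in treated and 12.2 ± 0.438 RPKM in untreated macrophages (log2 change -0.21, limma adjusted p = 0.0151). That call was lost without treated replicate 2 or untreated replicate 2 (limma adjusted p = 0.0590 and 0.0585). Mrpl33, a bL33 homologue, averaged 3.77 ± 0.193 RPKM in treated and 4.61 ± 0.266 RPKM in untreated macrophages (log2 change -0.23, limma adjusted p = 0.00667). The gene model behind that value was 7473 bases long and overlaps Bre on the same strand, which was itself lower (log2 change -0.21, limma adjusted p = 0.003), so the reads of Mrpl33 are uncertain and the part of Bre in its fall was not tested.

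The proteins of the L7/L12 stalk and its base, where translation factors dock, did not pass the test. Mrpl12, whose product also binds the mitochondrial RNA polymerase, averaged 25.2 ± 2.88 RPKM in treated and 25.2 ± 0.571 RPKM in untreated macrophages. Mrpl10, which anchors the stalk, averaged 17.9 ± 0.795 RPKM in treated and 18.8 ± 0.746 RPKM in untreated macrophages (log2 change -0.06). Mrpl11, at the stalk base, averaged 7.94 ± 0.829 RPKM in treated and 7.59 ± 0.351 RPKM in untreated macrophages (log2 change 0.05). Mrpl23, at the tunnel exit, averaged 15.2 ± 1.10 RPKM in treated and 15.4 ± 0.323 RPKM in untreated macrophages (log2 change -0.03). Mrpl42, among the most abundant members, averaged 33.8 ± 2.24 RPKM in treated and 34.0 ± 1.59 RPKM in untreated macrophages (log2 change -0.01). For all 5 the groups overlapped, and the sign changed in some alternatives: Mrpl12, Mrpl10, Mrpl23 and Mrpl42 were above 0 after both rescalings, and Mrpl11 was below 0 without treated replicate 3. Mrpl42 and Mrpl11 were called higher after both rescalings (limma adjusted p = 0.0476 and 0.0383 with median-of-ratios factors), and the other 3 were not.

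In the small subunit, 9 of 29 tested genes were higher and 3 were lower, with a median log2 change of 0.04. Mrps12 gave the largest rise. It encodes uS12m, which forms part of the decoding centre, and lies on chromosome 7 (28739641 to 28741820, minus strand). Mrps12 had 14.9, 17.7 and 17.1 RPKM in treated macrophages, against 12.2, 13.4 and 12.0 RPKM in untreated macrophages. All treated libraries were above all untreated ones, with treated replicate 1 the lowest of its group. The log2 change was 0.37 (SE 0.07, limma adjusted p = 0.00149).

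Mrps24 (uS3m) averaged 18.5 ± 0.982 RPKM in treated and 14.8 ± 0.726 RPKM in untreated macrophages (log2 change 0.30, limma adjusted p = 0.00128). Mrps28 (bS1m) averaged 14.2 ± 0.836 RPKM in treated and 11.6 ± 1.02 RPKM in untreated macrophages (log2 change 0.27, limma adjusted p = 0.00741). Mrps15 (uS15m) averaged 21.7 ± 0.958 RPKM in treated and 18.0 ± 0.994 RPKM in untreated macrophages (log2 change 0.25, limma adjusted p = 0.00301). Mrps7, whose product organises the head of the small subunit, averaged 15.8 ± 1.45 RPKM in treated and 13.1 ± 0.529 RPKM in untreated macrophages (log2 change 0.25, limma adjusted p = 0.00961). The groups of all 4 did not overlap. Mrps24 overlaps Urgcp on the same strand (log2 change 0.05), and Mrps7 overlaps Gga3 and Mif4gd on the opposite strand (log2 changes -0.02 and -0.25), so both values are uncertain to the extent that reads were shared.

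Mrps36 rose as well, but its product is not a ribosomal protein: despite its symbol it is KGD4, an adaptor subunit of the alpha-ketoglutarate dehydrogenase complex of the citric acid cycle. Mrps36 averaged 19.7 ± 1.46 RPKM in treated and 15.8 ± 0.728 RPKM in untreated macrophages (log2 change 0.30, limma adjusted p = 0.00222). Mrps21 (bS21m) and Mrps16 (bS16m), which were among the most abundant of the small subunit, rose by 0.19 each on the log2 scale (limma adjusted p = 0.0103 and 0.0241). The call of Mrps16 was lost without treated replicate 2 or untreated replicate 3 (limma adjusted p = 0.0987 and 0.104).

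Mrps6 gave the largest fall of the small subunit. Its product is bS6m, and the gene lies on chromosome 16 (92058270 to 92112227, plus strand). Mrps6 had 10.6, 11.1 and 11.1 RPKM in treated macrophages, against 15.2, 15.02 and 13.4 RPKM in untreated macrophages. The groups did not overlap, and the log2 change was -0.38 (SE 0.06, limma adjusted p = 0.000312), or -0.22 after median-of-ratios scaling (limma adjusted p = 0.00789). Mrps6 overlaps Slc5a3, a sodium/myo-inositol transporter gene, on the same strand. Slc5a3 averaged 1.55 RPKM in treated and 2.77 RPKM in untreated macrophages (log2 change -0.56), and its part in the fall of Mrps6 was not tested.

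Mrps22 and Mrps23 encode the mitochondria-specific proteins mS22 and mS23. Mrps22 averaged 9.10 ± 0.417 RPKM in treated and 10.6 ± 0.680 RPKM in untreated macrophages (log2 change -0.20, limma adjusted p = 0.0134). Mrps23 averaged 20.9 ± 0.894 RPKM in treated and 23.5 ± 0.385 RPKM in untreated macrophages (log2 change -0.16, limma adjusted p = 0.0113). Neither was called after rescaling, and with upper-quartile factors the change of Mrps23 was 0.0016. The call of Mrps22 was also lost without treated replicate 2 or untreated replicate 2 (limma adjusted p = 0.0590 and 0.0558), and that of Mrps23 without treated replicate 2 (limma adjusted p = 0.0580).

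The 3 Mrps18 paralogues, all related to bacterial S18, occupy different places in the ribosome: Mrps18c is bS18m and Mrps18b is mS40, both in the small subunit, whereas Mrps18a is mL66 and sits in the large subunit. Mrps18b was at the edge of the threshold, with 12.2 ± 0.869 RPKM in treated and 10.9 ± 0.162 RPKM in untreated macrophages (log2 change 0.14, limma adjusted p = 0.0472), and 5 of the 6 fits that each left out 1 library did not call it (largest limma adjusted p = 0.128, without untreated replicate 1). Mrps18c averaged 19.9 ± 0.824 RPKM in treated and 20.3 ± 0.121 RPKM in untreated macrophages. Mrps18a averaged 7.16 ± 0.232 RPKM in treated and 7.49 ± 0.268 RPKM in untreated macrophages. Both had negative log2 changes (-0.03 and -0.06) that did not pass the test, and both were above 0 after either rescaling. Mrps18c was then called higher (limma adjusted p = 0.0326 with median-of-ratios and 0.0273 with upper-quartile factors), and Mrps18a was not called.

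Mrps30, which is mL65 of the large subunit despite its symbol, averaged 11.3 ± 0.686 RPKM in treated and 12.0 ± 1.28 RPKM in untreated macrophages (log2 change -0.08, above 0 after either rescaling). Mrps27, a pentatricopeptide repeat protein that contacts ribosomal RNA, averaged 9.21 ± 1.203 RPKM in treated and 8.53 ± 0.505 RPKM in untreated macrophages. Mrps34, needed for a stable small subunit, averaged 8.51 ± 0.994 RPKM in treated and 8.46 ± 0.962 RPKM in untreated macrophages. None of these 3 passed the test, and leaving out single libraries turned the sign of Mrps27 and Mrps34. Mrps27 was called higher after either rescaling (limma adjusted p = 0.0326 with median-of-ratios and 0.0301 with upper-quartile factors).

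The pseudogene rows Mrpl48-ps and Mrps36-ps2 were listed at 0 in all 6 libraries. Mrps36-ps1 was listed at 1.49 RPKM in treated replicate 3 and at 0 in the others.

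The question of large against small subunit was taken up with library sums, since a shift in the balance would move them apart. The 47 large-subunit genes summed to 718, 760 and 780 RPKM in treated libraries, against 703, 751 and 699 RPKM in untreated libraries. The 29 small-subunit genes summed to 346, 369 and 374 RPKM in treated libraries, against 338, 349 and 335 RPKM in untreated libraries. Untreated replicate 2 lay above treated replicate 1 in both sums, so the ranges overlapped. Mean sums were 753 ± 31.6 RPKM in treated and 718 ± 28.7 RPKM in untreated macrophages for the large subunit, and 363 ± 15.01 RPKM in treated and 340 ± 7.22 RPKM in untreated macrophages for the small subunit.

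The ratio of the large to the small sum was 2.08, 2.06 and 2.09 in treated libraries, against 2.08, 2.15 and 2.09 in untreated libraries. Only untreated replicate 2 stood apart, and the group means of 2.07 ± 0.013 in treated and 2.11 ± 0.040 in untreated macrophages differed by less than the untreated spread. No difference in the balance of the subunits was detectable with 3 libraries a group. Both subunits also had the same median log2 change of 0.04, and the share called higher was 23.4% in the large and 31.0% in the small subunit. With Mrps18a and Mrps30 placed in the large subunit and Mrps36 left out, 11 of 49 large-subunit genes were higher and 4 lower, and 8 of 26 small-subunit genes were higher and 3 lower.

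Within the groups, single libraries moved most members together. Treated replicate 1 held the lowest value of its group for 53 of the 76 genes, and untreated replicate 2 the highest value of its group for 48. The median member deviated from its group mean by -0.06 on the log2 scale in treated replicate 1 and by 0.05 in untreated replicate 2.

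**Figure D2:**
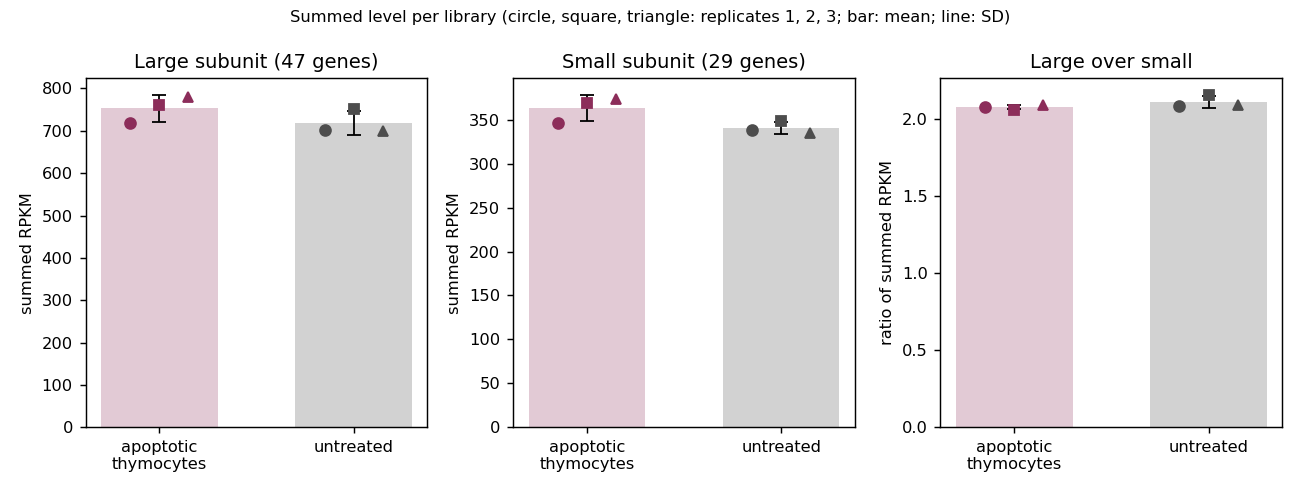
Summed RPKM (y axis) of the 47 large-subunit genes (left), of the 29 small-subunit genes (middle) and the ratio of both sums (right) in treated and untreated libraries. Points are libraries, bars are means and lines are SDs (n = 3 each). Treated and untreated ranges overlap in all 3 panels, and the ratio lies between 2.06 and 2.15 in every library.

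Genes were grouped by descent into those for homologues of bacterial ribosomal proteins and those for mitochondria-specific proteins. Called shares were similar (34.8% and 34.5%), against 64.8% of all tested genes. Of 46 bacterial homologues, 14 were higher and 2 lower (30.4% and 4.35%), with a median log2 change of 0.05. Of 29 mitochondria-specific genes, 5 were higher and 5 lower (17.2% each), with a median of -0.01. The shares over all tested genes were 18.8% higher and 46.0% lower. In the small subunit, 7 of 16 bacterial homologues were higher and 1 was lower, and of 10 genes counted as mitochondria-specific 1 was higher and 2 were lower. That 1 rise was Mrps18b (mS40), which is related to bacterial S18, so the counts by descent depend on where it is placed. The difference between these lists was not tested. After median-of-ratios scaling 34 of the 46 and 13 of the 29 were higher (73.9% and 44.8%), with 1 lower in each. On that scale 31.8% of all tested genes were higher and 27.9% lower.

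On the RPKM scale, members with short gene models held most of the rises. Of the 25 members with the shortest models (412 to 1274 bases), 13 were higher and 3 lower, with a median log2 change of 0.19. Among the 26 of intermediate length (1282 to 2330 bases), 5 were higher and 3 lower, with a median of 0.03. The 25 longest (2533 to 8079 bases) had 2 rises and 1 fall and a median of 0.01. Among all tested genes of any length 18.8% were higher and 46.0% lower. The shares among tested genes of like length, and the counts by length after rescaling, were not determined. After median-of-ratios scaling 48 members were higher. Over the 76 members, Spearman's rho between the log2 change and model length was -0.33, with GC content of the longest transcript it was 0.31 (75 members with a value) and with mean RPKM it was 0.29. Over all tested genes the corresponding rho values were -0.14, 0.13 and 0.16. The -0.14 used annotated lengths (10104 of 10173 genes), whereas the members' -0.33 used lengths recovered from the RPKM values. The length correlations thus rest on unlike measures. These are correlations across genes of the same 6 libraries, and genes are not independent replicates.

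**Figure D3:**
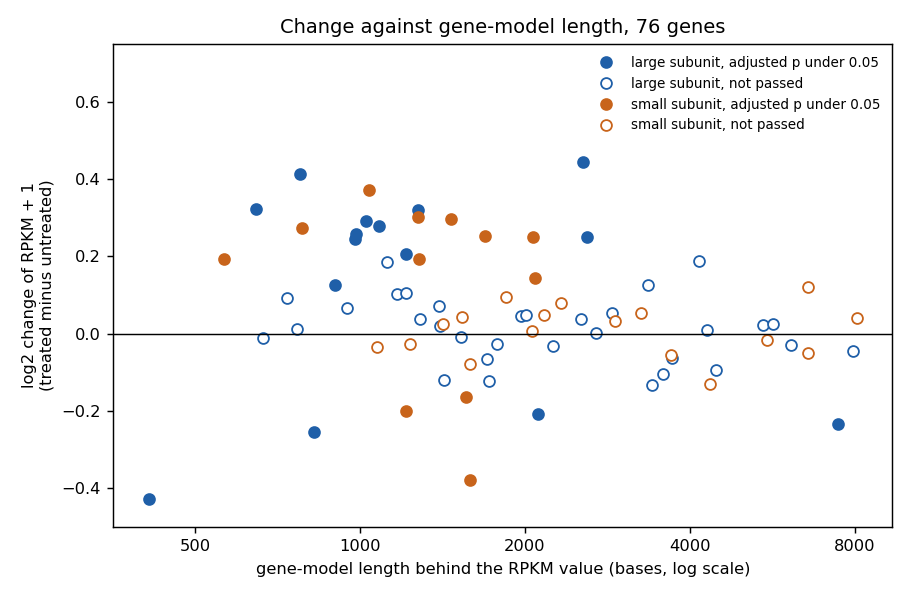
Log2 change of RPKM + 1 (treated minus untreated, y axis) against the gene-model length in bases (x axis, log scale) for the 76 tested members. Filled points have an adjusted p under 0.05. Of the 20 rises on the RPKM scale, 13 have models of 412 to 1274 bases, and the largest fall, Mrpl52 at -0.43, has the shortest model at 412 bases.

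Many members share their start region with another gene. For 32 of the 76 members that are not pseudogenes, a gene on the opposite strand began within 1000 bases of the member's start. This made 31 pairs, 24 of them within 300 bases. The share of all genes with such a neighbour was not determined. In 23 pairs both genes were tested. Neither gene was called in 9 of these pairs, both were called in the same direction in 3, both in opposite directions in 1, only the member in 3 and only the neighbour in 7. Among the neighbours in these 23 pairs, 4 were higher and 7 lower, against 18.8% higher and 46.0% lower of all tested genes. These calls are on the RPKM scale, and no relation between the genes of a pair was tested.

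The pairs called in the same direction were Mrpl41 with Pnpla7, Mrpl55 with 2610507I01Rik, and Mrpl50 with Zfp189. Of these members, Mrpl50 was not called after either rescaling. Pnpla7, a lysophospholipase gene whose start lies 935 bases away, averaged 27.8 ± 0.277 RPKM in treated and 22.9 ± 0.419 RPKM in untreated macrophages (log2 change 0.27). 2610507I01Rik, an uncharacterised transcript, averaged 7.37 ± 1.07 RPKM in treated and 4.75 ± 0.377 RPKM in untreated macrophages (log2 change 0.54). Zfp189, a zinc-finger gene, averaged 1.51 ± 0.060 RPKM in treated and 1.87 ± 0.091 RPKM in untreated macrophages (log2 change -0.19).

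Mrps12 and Sars2 were the pair called in opposite directions. Sars2 encodes the mitochondrial seryl-tRNA synthetase, another component of the same translation system, and its start lies 148 bases from that of Mrps12. Sars2 had 3.29, 3.45 and 3.09 RPKM in treated macrophages, against 4.42, 4.12 and 3.93 RPKM in untreated macrophages. All treated libraries were below all untreated ones (log2 change -0.27, limma adjusted p = 0.0035), whereas Mrps12 had a log2 change of 0.37. After median-of-ratios scaling Sars2 was not called (log2 change -0.13, limma adjusted p = 0.0742). The bases between both starts are shown for 4 of the pairs, because each stretch is the whole of the sequence that separates the member from its neighbour. The neighbour moved with Mrpl55 and Mrpl50 and against Mrps12. Mrpl43 and its neighbour, the helicase gene Peo1, were both not called on the RPKM scale. Mrpl43 was called higher after either rescaling (limma adjusted p = 0.00687 with median-of-ratios and 0.00577 with upper-quartile factors) and without treated replicate 1. Each stretch is written 5′ to 3′ on the member's strand, so the neighbour starts just before the first base on the other strand and the member starts just after the last. Capitals mark letters of the motifs searched below. Sequences are from the RefSeq promoter table on GRCm38.p6, cut to the start sites of the deposited table.
Mrps12 with Sars2, chr7:28741821-28741967, minus strand: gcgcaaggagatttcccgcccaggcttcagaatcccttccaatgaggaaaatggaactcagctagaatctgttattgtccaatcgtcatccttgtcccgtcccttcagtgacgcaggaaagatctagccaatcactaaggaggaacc
Mrpl55 with 2610507I01Rik, chr11:59202386-59202485, plus strand: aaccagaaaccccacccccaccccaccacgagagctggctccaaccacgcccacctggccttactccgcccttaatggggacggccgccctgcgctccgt
Mrpl50 with Zfp189, chr4:49521094-49521175, minus strand: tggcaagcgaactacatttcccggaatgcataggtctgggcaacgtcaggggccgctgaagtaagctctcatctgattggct
Mrpl43 with Peo1, chr19:45006443-45006557, minus strand: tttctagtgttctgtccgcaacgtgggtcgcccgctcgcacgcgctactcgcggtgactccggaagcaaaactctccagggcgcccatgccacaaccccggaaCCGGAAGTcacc

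Other pairs set a member not called on the RPKM scale beside a neighbour with a large change. Mrpl51 had a log2 change of 0.13 (adjusted p = 0.0783 in limma). It was called higher after either rescaling (0.28 with median-of-ratios factors, limma adjusted p = 0.0022), with a replicate block and without treated replicate 1. Ncapd2, a condensin subunit gene whose start is 206 bases away, averaged 2.13 ± 0.119 RPKM in treated and 4.29 ± 0.159 RPKM in untreated macrophages (log2 change -0.76). Mrpl49 had a log2 change of -0.12 (0.04 after either rescaling), and Fau, which encodes a ubiquitin-like protein fused to a cytosolic ribosomal protein, averaged 6.20 ± 1.69 RPKM in treated and 3.52 ± 0.538 RPKM in untreated macrophages (log2 change 0.65). Mrpl46 and Mrps11 are neighbours of each other, and their log2 changes were 0.07 and 0.05, neither past the test. After either rescaling Mrpl46 was called higher (limma adjusted p = 0.0123 with median-of-ratios and 0.0109 with upper-quartile factors), and Mrps11 was not called. These genes outside the members were chosen after their values were seen.

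**Figure D4:**
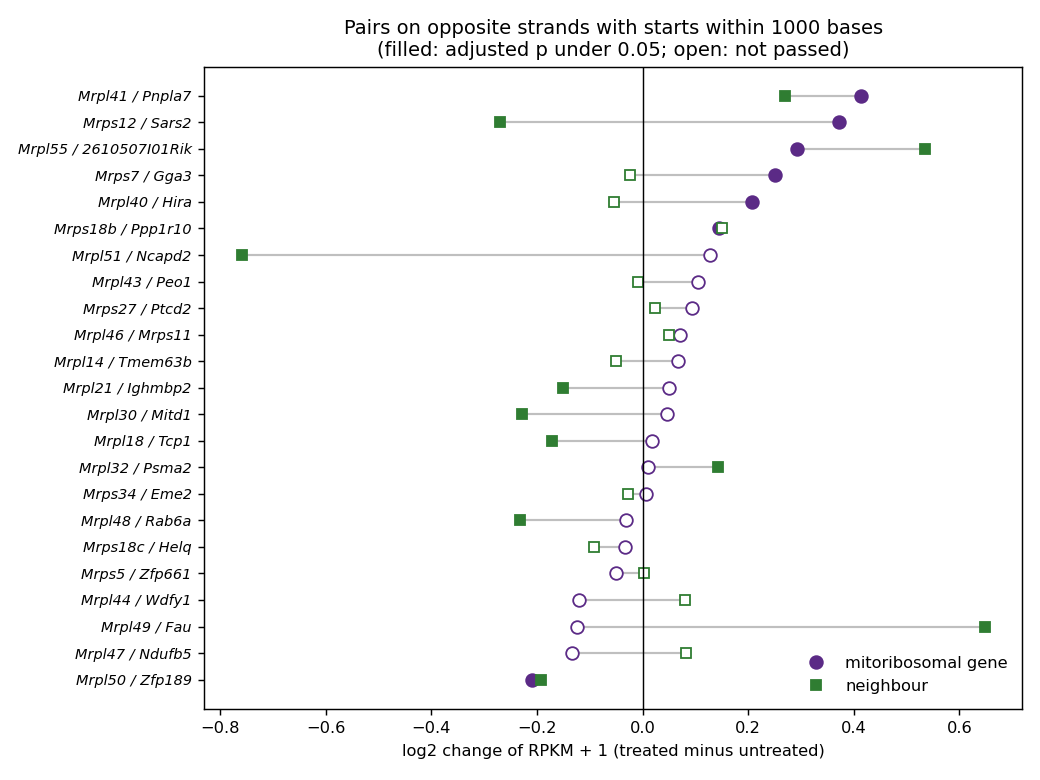
Log2 change of RPKM + 1 (treated minus untreated, x axis) of a member (circles) and its neighbour on the opposite strand (squares) for the 23 pairs in which both were tested. Filled symbols have an adjusted p under 0.05. Mrps12 (0.37) and Sars2 (-0.27) are the only pair with both symbols filled on opposite sides of 0.

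Overlap with expressed genes limits the precision of some members. A gene with at least 1 RPKM overlapped 19 members, on the same strand for 5 of them and on the opposite strand for 16. Whether the authors' counting used strand is not given in the sources used here, so values of these members are uncertain.

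Promoter sequences were available for 67 of the members, from 250 bases before to 50 after the RefSeq start. Motif letters known from promoters of nuclear genes for mitochondrial proteins were searched on both strands. CCGGAAGT, a motif of ETS-family factors such as GABPA, stood in 11 of 67 promoters (16.4%), against 4.0% of all 27025 promoters and 9.68% of those of tested genes. AAGATGGC, a motif of YY1, stood in 12 (17.9%), against 2.88% of all promoters and 5.36% of those of tested genes. GCATGCGC, contained in the motif of NRF1, stood in 8 (11.9%), against 2.80% and 6.19%, and the longer full NRF1 motif searched, which includes these letters, in 3 (4.48%), against 0.977% and 2.49%. CACGTG, the E-box bound by MYC and other factors, stood in 5 (7.46%), against 7.24% and 11.1%.

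The counts by call are small, no difference between the calls was tested, and of the 7 falls 2 stay called after rescaling. CCGGAAGT stood in 1 of 18 promoters of members that were higher, 3 of 6 that were lower and 7 of 43 that did not pass. In the same order, AAGATGGC stood in 4 of 18, 0 of 6 and 8 of 43, GCATGCGC in 2 of 18, 1 of 6 and 5 of 43, the full NRF1 motif in 0 of 18, 0 of 6 and 3 of 43, and CACGTG in 2 of 18, 0 of 6 and 3 of 43. Promoters of 4 members, up to the RefSeq start, show the range: Mrpl41, which was higher, and Mrpl52, which was lower, held none of the motifs in these bases, and Mrpl27, which was higher, and Mrps22, which was lower, both held CCGGAAGT (in capitals). Each runs 5′ to 3′ on the gene's strand for 200 bases and is credited to RefSeq on GRCm38.p6.
Mrpl41, chr2:24975099-24975298, minus strand: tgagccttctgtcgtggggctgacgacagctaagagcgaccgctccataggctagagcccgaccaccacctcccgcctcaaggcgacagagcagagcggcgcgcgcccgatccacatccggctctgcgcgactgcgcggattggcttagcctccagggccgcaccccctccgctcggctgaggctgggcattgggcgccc
Mrpl27, chr11:94653591-94653790, plus strand: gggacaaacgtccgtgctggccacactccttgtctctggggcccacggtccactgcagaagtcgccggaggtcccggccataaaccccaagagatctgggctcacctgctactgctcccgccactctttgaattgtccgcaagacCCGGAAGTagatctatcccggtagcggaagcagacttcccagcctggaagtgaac
Mrpl52, chr14:54426709-54426908, plus strand: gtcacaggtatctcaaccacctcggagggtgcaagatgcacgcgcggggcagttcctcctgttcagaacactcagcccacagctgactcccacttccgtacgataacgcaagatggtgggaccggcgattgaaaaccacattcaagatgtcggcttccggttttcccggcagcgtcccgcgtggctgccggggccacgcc
Mrps22, chr9:98601680-98601879, minus strand: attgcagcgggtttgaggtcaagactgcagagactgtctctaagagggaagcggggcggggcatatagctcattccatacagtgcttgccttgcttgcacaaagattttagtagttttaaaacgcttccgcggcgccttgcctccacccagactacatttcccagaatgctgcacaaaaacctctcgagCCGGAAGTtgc

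Other genes of the same system were described with the same test, from lists of their known members. Their counts stand against 18.8% higher and 46.0% lower among all tested genes, whose median log2 change was -0.13. Mitoribosome subunits with other symbols followed no single direction. Of 7, 2 were higher and 1 was lower (median log2 change 0.10). Ptcd3 (mS39), a pentatricopeptide repeat protein by which the small subunit takes up messenger RNA, fell to 8.32 ± 0.211 RPKM in treated macrophages, against 10.1 ± 0.582 RPKM in untreated macrophages (log2 change -0.25, limma adjusted p = 0.003). Dap3 (mS29), a GTP-binding protein, averaged 4.99 ± 0.172 RPKM in treated and 4.28 ± 0.235 RPKM in untreated macrophages (log2 change 0.18, limma adjusted p = 0.0162). Ict1 (mL62), a peptidyl-tRNA hydrolase built into the large subunit, averaged 4.66 ± 0.524 RPKM in treated and 3.85 ± 0.104 RPKM in untreated macrophages (log2 change 0.22, limma adjusted p = 0.0242). Chchd1, Aurkaip1, Gadd45gip1 and Mrp63 had log2 changes of 0.20, 0.10, 0.08 and 0.02 that did not pass. Leaving out 1 library moved the number called higher in this list to between 0 (without untreated replicate 1) and 5 (without treated replicate 1). Dap3 was not called without untreated replicate 1 or 3 (limma adjusted p = 0.0677 and 0.0560), and Ict1 without treated replicate 2 or 3 or untreated replicate 1 or 2 (limma adjusted p 0.0585 to 0.0735). After median-of-ratios scaling 5 of the 7 were higher and 0 lower.

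Assembly factors had 2 higher and 4 lower of 22 tested (median -0.06). Mpv17l2, an inner-membrane protein that associates with the large subunit, averaged 27.2 ± 3.63 RPKM in treated and 17.8 ± 1.199 RPKM in untreated macrophages (log2 change 0.58, limma adjusted p = 0.000519), whereas Gtpbp10, a GTPase of late large-subunit assembly, averaged 2.06 ± 0.357 RPKM in treated and 3.13 ± 0.029 RPKM in untreated macrophages (log2 change -0.44, limma adjusted p = 0.00153). Mettl17, required for small-subunit assembly, had a log2 change of -0.20. Of 17 translation factors and mRNA-binding proteins, 1 was higher and 3 were lower (median 0.00). Slirp, which stabilises mitochondrial messenger RNAs, had a log2 change of 0.28, and the initiation factor gene Mtif2 and the release factor gene Mtrf1 had log2 changes of -0.26 and -0.27. After median-of-ratios scaling 6 of the assembly factors were higher and 1 lower, and 7 of the translation factors were higher and 0 lower, with Mettl17, Mtif2 and Mtrf1 no longer called. Without treated replicate 2 or untreated replicate 2, 2 assembly factors were lower, and without treated replicate 2 or untreated replicate 1 or 3, 1 was higher.

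Mitochondrial aminoacyl-tRNA synthetases had 3 higher and 7 lower of 19 (15.8% and 36.8%, median -0.11), so the share lower was below that of all tested genes. Fars2, the phenylalanyl-tRNA synthetase, averaged 8.04 ± 0.252 RPKM in treated and 5.08 ± 0.189 RPKM in untreated macrophages (log2 change 0.57, limma adjusted p = 9.42e-06). Gars, which serves both cytosol and mitochondria, had a log2 change of -0.22. Genes of mitochondrial DNA replication, transcription and RNA processing had 1 higher and 7 lower of 23 (4.35% and 30.4%, median -0.05), again with a share lower below that of all tested genes. Polg, the mitochondrial DNA polymerase, averaged 7.27 ± 0.249 RPKM in treated and 10.5 ± 0.039 RPKM in untreated macrophages (log2 change -0.47, limma adjusted p = 1.96e-05). Fastkd3 and Tfam, the transcription and packaging factor of mitochondrial DNA, had log2 changes of -0.50 and -0.22. After median-of-ratios scaling, 0 of the 19 synthetases were lower and 5 were higher, and of the 23 genes 2 were lower and 6 higher, with Gars and Tfam no longer called. Leaving out treated replicate 1 or 2 or untreated replicate 1 or 2 left 3 or 4 synthetases lower, and leaving out untreated replicate 3 left 1 higher. In the list of 23, 3 or 4 were lower without treated replicate 2 or untreated replicate 2 or 3, and 2 were higher without treated replicate 1 or untreated replicate 2.

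Of 9 regulators of mitochondrial biogenesis, 7 were tested, 1 was higher and 4 were lower (2 and 3 after median-of-ratios scaling). Myc averaged 2.59 ± 0.114 RPKM in treated and 9.62 ± 0.516 RPKM in untreated macrophages (log2 change -1.57, limma adjusted p = 2.18e-08). Gabpa, the ETS-family factor whose letters were searched in the promoters, averaged 6.70 ± 0.758 RPKM in treated and 9.41 ± 0.224 RPKM in untreated macrophages (log2 change -0.44). Esrra, a nuclear receptor of respiratory genes, averaged 21.0 ± 0.731 RPKM in treated and 16.8 ± 0.634 RPKM in untreated macrophages (log2 change 0.30).

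Of the 13 protein genes of mitochondrial DNA, 0 were higher and 10 were lower (median log2 change -0.33). mt-Nd6 averaged 31.0 ± 3.92 RPKM in treated and 57.2 ± 5.88 RPKM in untreated macrophages (log2 change -0.86, limma adjusted p = 4.93e-05). It is not typical of the list: it was the only gene beyond 0.5 and had the lowest treated mean, where others reached 6681 RPKM. The part of poly(A) selection and of strand counting in its value was not tested. The number of genes lower in this list fell to 3 without untreated replicate 3 and to 4 without untreated replicate 1, and after median-of-ratios scaling 1 was higher and 3 were lower. Of 74 tested nuclear genes for respiratory chain subunits, 37 were higher and 4 were lower (median 0.15, with 56 higher and 2 lower after median-of-ratios scaling and 24 higher without treated replicate 2). Cox5a, a subunit of cytochrome c oxidase, averaged 179 ± 11.0 RPKM in treated and 121 ± 1.36 RPKM in untreated macrophages (log2 change 0.56, limma adjusted p = 1.24e-05). Sdhd, of succinate dehydrogenase, had a log2 change of 0.47, and Cox7a1 one of -0.60.

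The cytosolic ribosomal proteins, the counterpart list, had 1 higher and 44 lower of 78 tested (1.28% and 56.4%, median -0.20). Among all tested genes 46.0% were lower, and the list's median lay 0.06 below theirs. Of the 76 mitochondrial ones 20 were higher and 7 lower. Rpl5 averaged 104 ± 3.44 RPKM in treated and 136 ± 5.86 RPKM in untreated macrophages (log2 change -0.39, limma adjusted p = 0.000102). After median-of-ratios scaling 8 were higher and 8 lower, and 2 were higher without treated replicate 1 or untreated replicate 2 or 3. The direction of this list thus rests on the RPKM scale. Many cytosolic ribosomal protein genes have processed pseudogenes, which makes their values uncertain. The 1 rise on the RPKM scale was Fau, at a mean of 6.20 RPKM in treated macrophages, where others of the list reached 1499 RPKM.

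**Figure D5:**
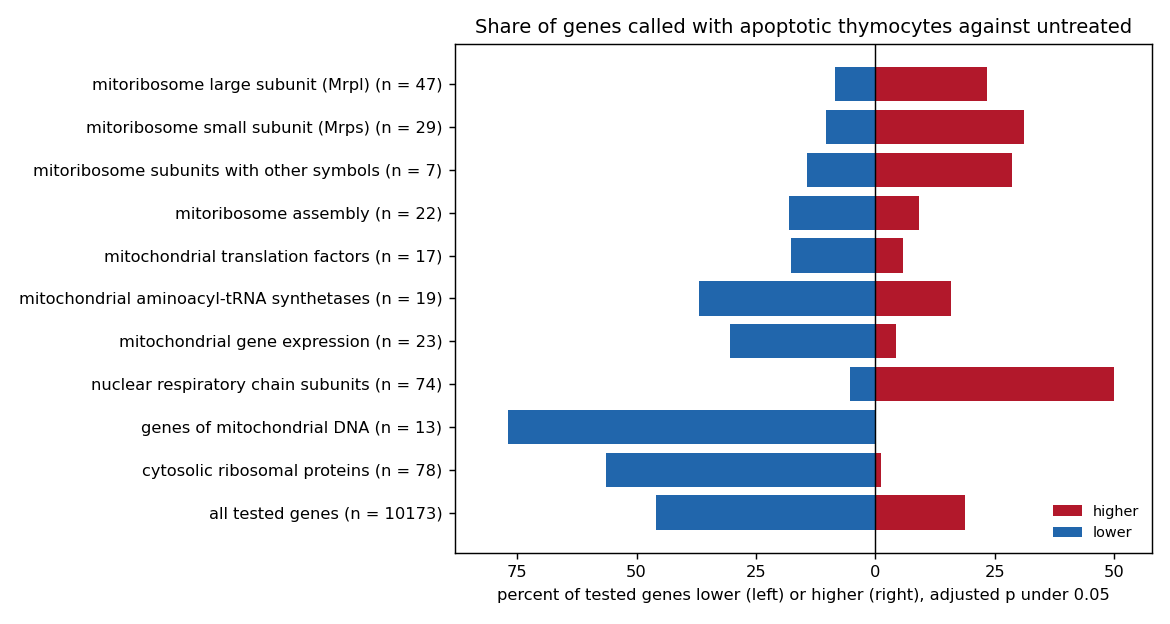
Percent of tested genes called higher (right of 0) or lower (left of 0) in treated against untreated macrophages (adjusted p under 0.05) for both mitoribosome subunits, the related lists and all tested genes. The mitoribosome subunits have more rises than falls (23.4% and 31.0% higher), the nuclear respiratory chain list has the largest share of rises and the genes of mitochondrial DNA and cytosolic ribosomal proteins have mostly falls.

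Markers of other cells were checked in the same libraries. Of 20 thymocyte markers, Cd3e, Cd8b1, Ptcra, Rag2 and Themis were listed at 0 in all 6 libraries. The thymocyte list summed to 2.34 to 2.90 RPKM in treated and 4.84 to 5.39 RPKM in untreated libraries, most of it Cd4. Cd4 averaged 2.14 ± 0.155 RPKM in treated and 4.32 ± 0.165 RPKM in untreated macrophages (log2 change -0.76, limma adjusted p = 3.86e-06), and it was the only thymocyte marker that passed the filter. All 12 macrophage markers were tested and summed to 22759 to 25479 RPKM in treated and 17732 to 18567 RPKM in untreated libraries. Most of that sum was Lyz2, and of the 12 markers 4 were higher and 7 lower (median log2 change -0.14). Neutrophil markers summed to 36.5 to 39.8 RPKM in treated and 6.28 to 6.87 RPKM in untreated libraries, carried by S100a8 and S100a9, with Ly6g at 0. Erythroid markers summed to 0.923 to 1.48 RPKM in treated and 0 to 0.0515 RPKM in untreated libraries, and B cell markers to 0.136 to 0.196 RPKM in treated and 0.434 to 0.596 RPKM in untreated libraries. The part of the neutrophil-marker and macrophage-marker differences in the members' levels was not tested. In bulk RNA a change in the number of cells of a type and a change in RNA per cell cannot be told apart.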

How the data were processed

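RNA-seq of 6 libraries (2 groups of 3) was analysed. The deposited values were RPKM, computed by the authors and named so in the file headers, for 38124 rows on GRCm38 (mm10), a build named in the submitters' processing notes. Aligner, read counter and strand setting are not given in the sources used here. All 6 value columns matched sample titles. Because counts were not used, log2(RPKM + 1) was tested with limma 3.58.1 under R 4.3.3 (trended prior variance, 1 coefficient for treatment, no block) over genes with at least 1 RPKM in at least 3 libraries, and p was adjusted by Benjamini-Hochberg over all of them. SE is the moderated standard error. The pseudocount understates changes of low genes. Depth was recovered from RPKM steps and GENCODE M21 exon lengths, with whole reads taken within 0.02. That length gave whole reads for 38 of the 76 members, and a length was searched for the other 38. The limma procedure was run on simulated data with no difference in scale between the groups, so that run does not bear on the choice of scaling. Python 3.11.15 and pandas 2.3.3 did the rest.

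Members and lists were chosen with earlier results of these data known. Subunit, descent and list counts carry no test. Named members were up to 6 rises and 6 falls per subunit, the 3 most abundant per subunit, those below the filter, those nearest the threshold and a fixed set with particular roles, and of other lists up to 3 genes with the smallest p. Of the entries of the lists, Nsun4, Malsu1, Gatb, Mterf1a, Mgme1, Hbb-bs and Hbb-bt were not found under these symbols. Alternatives were other pseudocounts (0.1 and 0.5), no filter, a filter of 5 RPKM, both rescalings, a replicate block, each library left out, subunits by structure and no pseudogene rows.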

Additional observations from a re-analysis of the deposited data

How the results depend on the processing

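Other pseudocounts, a stricter filter, leaving out pseudogene rows and placing subunits by structure moved no count of members by over 1.5 times. Without the filter 16 members were higher and 6 lower, and Mrpl40, Mrpl55, Mrps16, Mrps18b and Mrpl54 lost their calls. Rescaling moved the counts further. With median-of-ratios factors, 48 members were higher and 2 lower (large subunit 30 and 1, small subunit 18 and 1), 3235 of all tested genes were higher and 2836 lower, and 96 genes of the pathway lists were higher and 19 lower. With upper-quartile factors the counts were 49 and 2 (large subunit 31 and 1, small subunit 18 and 1), 3280 and 2814, and 99 and 19. The unscaled counts were 20 and 7, 1915 and 4679, and 48 and 84. Both rescalings raised treated against untreated values, because the factors estimated from these libraries were lower in the treated ones. The median-of-ratios factors were 0.932 to 0.950 in treated and 1.06 to 1.07 in untreated libraries. Of the members below 0 without rescaling, 19 were above 0 with median-of-ratios and 20 with upper-quartile factors. Among the genes fixed for naming these were Mrpl42 (0.15 with median-of-ratios and 0.16 with upper-quartile factors), Mrpl12 (0.16 and 0.16), Mrpl10 (0.10 and 0.10), Mrpl23 (0.13 and 0.14), Mrps18a (0.094 and 0.097), Mrps18c (0.13 and 0.13) and Mrps30 (0.080 and 0.083), and, with upper-quartile factors, Mrps23 (0.0016). Leaving out 1 library at a time gave 15 to 23 members higher and 4 to 10 lower, 4 without treated replicate 2 and 4 without untreated replicate 2. In the large subunit 8 to 14 were higher and 2 to 6 lower (2 without untreated replicate 2), and in the small subunit 7 to 9 and 1 to 4 (1 without treated replicate 2). With 1 library left out, the treated minus untreated difference in the log2 ratio of large to small sums was -0.034 to -0.009. The same fits gave 1549 to 1949 higher and 3657 to 4708 lower over all tested genes, and 32 to 62 higher and 66 to 91 lower in the pathway lists. They turned the sign of Mrpl12 (-0.097 to 0.049), Mrpl42 (-0.057 to 0.037), Mrpl11 (-0.016 to 0.12), Mrpl23 (-0.071 to 0.027), Mrps27 (-0.0012 to 0.15), Mrps34 (-0.056 to 0.093) and Mrp63 (-0.025 to 0.090). Of the 20 rises 15, and of the 7 falls 2, were called in every alternative. The replicate numbers did not pair the libraries (correlations of same-numbered deviations 0.197, -0.031 and -0.162). A replicate block gave 22 members higher and 7 lower, with 1904 and 4627 over all tested genes. Among the named genes it added Mrpl17 and Chchd1 to those called (limma adjusted p = 0.038 and 0.0239), and it also called Mrpl51. With 3 libraries a group, changes of members near the replicate spread of 5.80% and 5.32% were not detectable.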
